A study of Mus musculus with 36 samples.

Results

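The comparison described here sets 4 libraries labelled mac-TFEB against 4 labelled Cre-neg, all of CCR2-negative (CCR2neg) macrophages from hearts of TFEBTG mice, across the 12795 genes of the deposited table. These 8 libraries were chosen by genotype, CCR2 fraction and Cre status from the 36 of the series, and each mac-TFEB library was paired with the Cre-neg library that carries the same number, 1 to 4. TFEBTG mice carry a TFEB expression cassette behind a floxed stop sequence, Cx3cr1-er-Cre (a Cre recombinase driven by Cx3cr1 whose activity tamoxifen induces) and a Td-Tomato reporter behind a stop sequence. All mice were fed tamoxifen for 7 days, the heart was then made ischemic for 90 min, and macrophages were flow-sorted 7 days after the injury. The design text describes Cre-neg samples as lacking Cre, whereas the growth protocol lists Cx3cr1-er-Cre for the controls too, and the sources used here do not say what sets the Cre-neg cells apart. A second pair of groups serves as reference: 5 CX3CR1-Cre and 5 Cre-neg libraries of CCR2neg macrophages from TFEBwt mice, which carry Cx3cr1-er-Cre and the reporter but no TFEB cassette and had the same tamoxifen and ischemia. The labels do not say whether libraries of 1 group came from separate animals or whether equal numbers mark 1 animal, so p-values reflect variation among the libraries only, part of which may be technical. The ages and sexes of the mice are not given in the labels. Both TFEBTG groups carry the cassette and are set apart by their labelled Cre status. Effects of Cre status and of TFEB expressed from the cassette cannot be told apart within TFEBTG.

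TFEB is a basic helix-loop-helix transcription factor of the MiT-TFE family that binds E-box sequences in the promoters of lysosome and autophagy genes. The kinase complex mTORC1 holds it in the cytoplasm at the lysosome when nutrients are plentiful, and starvation or lysosomal damage lets it enter the nucleus. In macrophages it is known for lysosome biogenesis, the handling of engulfed lipid and the control of inflammatory genes. CCR2neg cardiac macrophages include the long-lived resident cells, which clear debris after infarction, and cells that arose from monocytes and have lost CCR2.

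Total counts of the 8 libraries ran from about 13797500 to 29896300, and 12635 to 12770 of the listed genes had a count in each. Mitochondrial transcripts took 0.753, 0.643, 0.668 and 0.670% of counts in mac-TFEB against 1.10, 0.791, 1.299 and 1.08% in Cre-neg, labels 1 to 4, lower in 4 of 4 pairs and without overlap of the groups; the part of this in the results was not tested. All 10 core macrophage markers checked were present and 1 of them, Cx3cr1, was called between the groups; their mean levels ran from mean levels of 169 CPM for Mertk in Cre-neg (an engulfment receptor) up to 20721 CPM for Lyz2 in Cre-neg (lysozyme). CPM are the counts as scaled to library size with edgeR's TMM factors. Both libraries of label 1 stood apart from the other 6 on the first principal component, which held 45.4% of the variance of log2 CPM. Their summed endothelial markers came to 272 CPM (mac-TFEB) and 211 CPM (Cre-neg) against 8.25 to 52.3 CPM elsewhere, and summed cardiomyocyte markers reached 523 CPM in the Cre-neg library of label 1 against 36.4 to 69.9 CPM in the other 7. Leaving out label 1 altogether gave 128 called genes in place of 301, and leaving out label 2, 3 or 4 gave 116, 174 and 194. Ccr2 itself, the receptor on which the fractions were sorted, was at 36.6 to 70.7 CPM in mac-TFEB and 49.4 to 81.5 CPM in Cre-neg.

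Tfeb rose in every mac-TFEB library relative to its partner. Its levels in labels 1 to 4 were 335, 250.0, 98.1 and 67.4 CPM in mac-TFEB and 36.5, 18.6, 16.9 and 12.4 CPM in Cre-neg. All 4 mac-TFEB libraries lay above all 4 Cre-neg libraries, and within mac-TFEB labels 1 and 2 lay above labels 3 and 4. The means were 188 ± 127 CPM and 21.1 ± 10.6 CPM (SD, n = 4 each), and the fitted log2 fold change was 2.96 ± 0.26 (SE; adjusted p = 6.68e-08, edgeR's quasi-likelihood test with Benjamini-Hochberg adjustment), higher in 4 of 4 pairs. It remained called in the fit of 36 libraries without the block for the label, but not without the block on the 8 libraries alone (adjusted p = 0.184, edgeR), and in all 12 fits that left out 1 library or 1 label, where the adjusted p was at most 1.45e-05. In the TFEBwt libraries Tfeb was at 7.78, 8.76, 8.86, 7.48 and 6.66 CPM in CX3CR1-Cre and 6.67, 4.57, 10.9, 5.37 and 5.76 CPM in Cre-neg, so the TFEBTG Cre-neg libraries lay above every TFEBwt library. Gene counts do not tell reads of the cassette from reads of the endogenous gene (chr17:47737030-47792419, plus strand, GRCm38). Cx3cr1, whose promoter drives the Cre and which encodes the fractalkine receptor, also rose, from 218, 274, 187 and 275 CPM in Cre-neg to 323, 427, 341 and 338 CPM in mac-TFEB in the order of the labels. The groups did not overlap, and the log2 fold change was 0.59 ± 0.11 (adjusted p = 0.00213, edgeR). In TFEBwt it was higher by 1.01 with Cre (adjusted p = 1.22e-07).

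**Figure D1:**
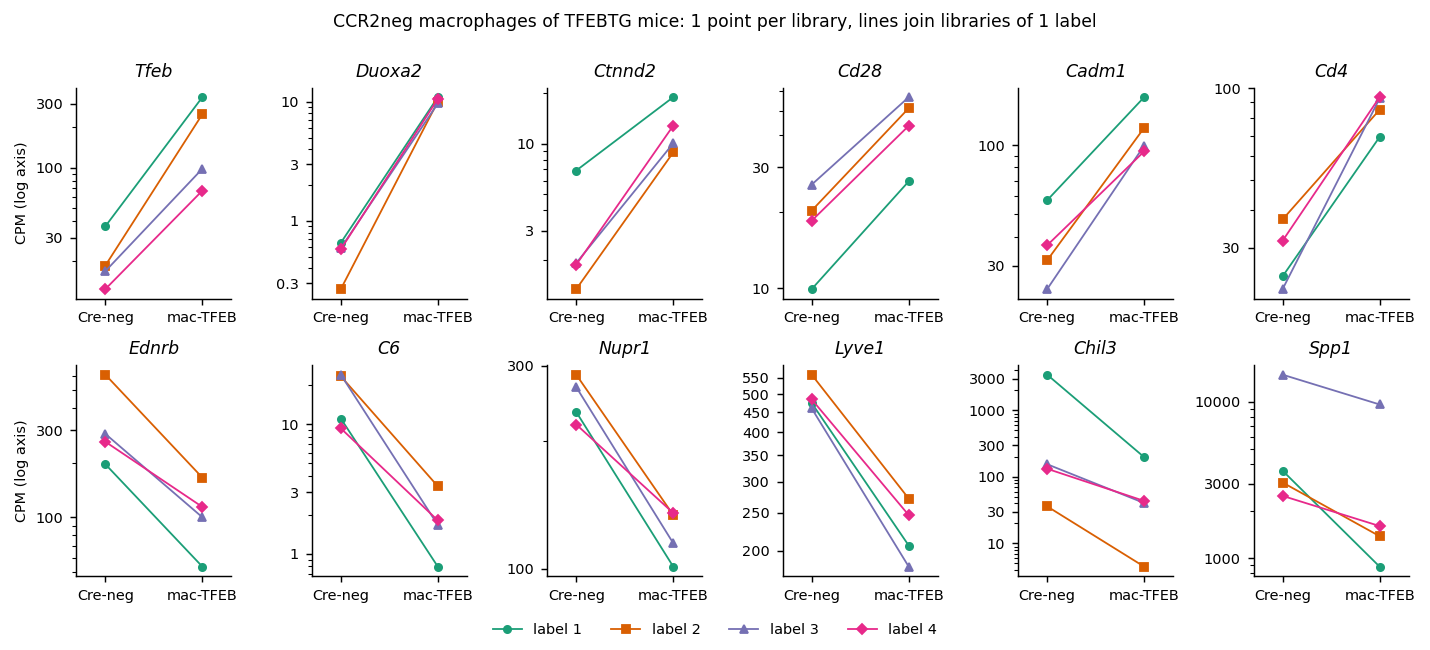
CPM (log axis) of 12 genes in the 4 Cre-neg and the 4 mac-TFEB libraries of CCR2neg macrophages from TFEBTG mice, with 1 point per library and lines joining libraries of 1 label. All 6 genes of the upper row were higher in mac-TFEB in 4 of 4 pairs and all 6 of the lower row were lower in 4 of 4 pairs, while Chil3 and Spp1 also spread widely between labels.

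Of the 12795 genes, 301 were called at an adjusted p under 0.05 (2.35% of genes tested), 157 higher (1.23%) and 144 lower (1.13%) in mac-TFEB. Increases were mostly small and decreases larger. The median log2 fold change was 0.57 among the genes that rose and -1.05 among those that fell, beside 0.01 over all genes, and 19 rises and 76 falls exceeded 1 on the log2 scale. In all 4 pairs 295 of the 301 moved the same way, as did 2872 of the 12795 genes tested. For 145 of the 301 (48.2%) the 2 groups did not overlap in CPM, against 3.56% of all genes. The 301 were called from these same libraries with the pairing in the fit. Both shares therefore follow in part from that selection and do not test the calls. Bulk libraries do not tell fewer cells of a type from less RNA per cell. The calls lean on the pairing: without the block for the label, edgeR called 20 genes (11 higher, 9 lower), all of them among the 301, and with limma-voom the split was 362 higher and 200 lower. Leaving out the mac-TFEB library 1, 2 or 3 gave 151, 161 and 187 calls and leaving out labels 1, 2 or 3 gave 128, 116 and 174. Label 4 left out gave 194, which is also below the main count by more than 1.5 times.

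**Figure D2:**
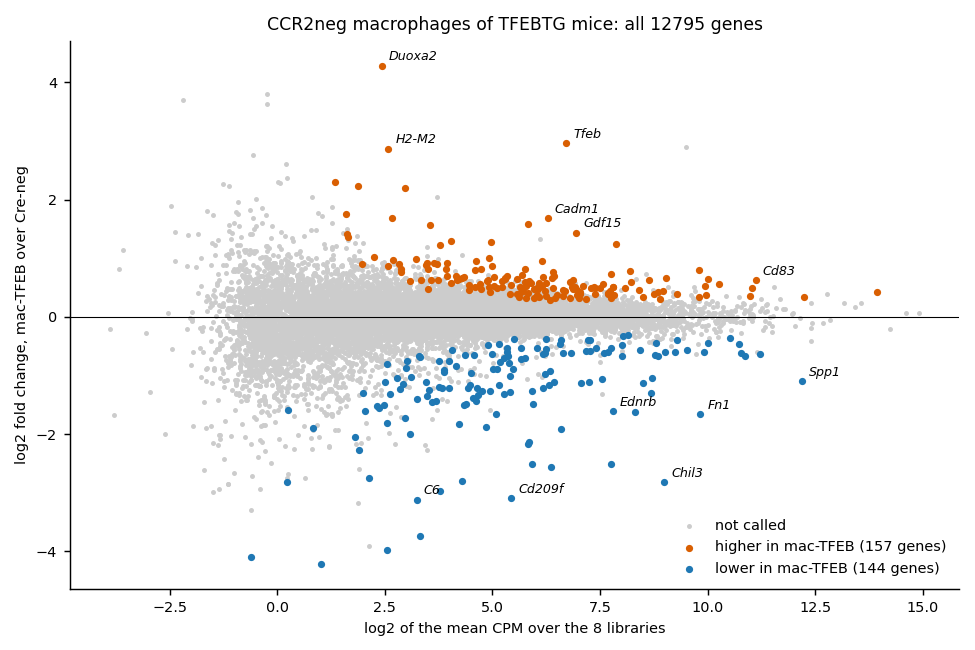
Fitted log2 fold change (mac-TFEB over Cre-neg) of each of the 12795 genes against the log2 of its mean CPM over the 8 libraries. The 157 genes that rose (orange) cluster at small changes, with a median of 0.57, and the 144 that fell (blue) reach further, with a median of -1.05.

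Among the 10 largest increases were genes of oxidase maturation, adhesion and T cell coreceptors. Duoxa2 encodes the maturation factor of the dual oxidase DUOX2. It stood at 10.9, 10.0, 9.64 and 10.5 CPM in mac-TFEB and at 0.656, 0.269, 0.592 and 0.579 CPM in Cre-neg, labels 1 to 4. The mac-TFEB libraries lay close together and far above every Cre-neg library, with a log2 fold change of 4.29 ± 0.49 (adjusted p = 3.06e-06, edgeR). The libraries carry no strand, and 42.8% of its exonic bases are shared with Duoxa1 on the opposite strand, so reads of those genes cannot be told apart there. In TFEBwt, without the cassette, it rose by 4.61 (adjusted p = 9.42e-08, edgeR). H2-M2, a non-classical MHC class I gene, was at 11.6, 11.3, 12.5 and 6.89 CPM against 0.197, 1.34, 2.27 and 1.59 CPM and rose by 2.87 ± 0.56 on the log2 scale (adjusted p = 0.00317, edgeR), without overlap of the groups. Ctnnd2, which encodes the adhesion protein delta-catenin, rose by 2.21 ± 0.32 from 1.34 to 6.89 CPM to 8.85 to 19.0 CPM, also without overlap. Cadm1, a homophilic cell adhesion molecule, rose by 1.68 ± 0.17 from 23.7 to 57.6 CPM to 93.8 to 161 CPM.

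Cd4 and Cd28 were also among the increases. Cd4, the coreceptor for MHC class II, stood at 69.3, 85.1, 92.7 and 93.6 CPM in mac-TFEB against 24.1, 37.1, 21.9 and 31.6 CPM in Cre-neg. Every mac-TFEB library lay above every Cre-neg library, with a log2 fold change of 1.58 ± 0.17 (adjusted p = 8.40e-07, edgeR). Cd28, the costimulatory receptor of T cells, was at 26.3, 51.2, 56.6 and 43.6 CPM against 9.91, 20.2, 25.6 and 18.4 CPM. Its groups were also separate, with label 1 the lowest in both, and the change was 1.27 ± 0.20 (adjusted p = 0.000232, edgeR). No gene of the T and NK cell list was called (0 of 11, median log2 fold change -0.59), beside 2.35% of all genes. The summed level of that list ran from 59.4 to 153 CPM in mac-TFEB and from 49.0 to 141 CPM in Cre-neg; its part in these rises was not tested. Gdf15, a stress-induced cytokine of the TGF-beta family, rose by 1.44 ± 0.23 from 121, 69.3, 20.1 and 69.5 CPM to 248, 193, 133 and 128 CPM, and Adam22, a catalytically inactive metalloprotease-like adhesion protein, rose by 1.29 ± 0.21. All of these 8 named rises and Tfeb kept their calls in all 12 leave-out fits, with adjusted p up to 0.0474, for H2-M2. Without the block the calls of Duoxa2 and Cd4 remained both with 36 libraries and with the 8 alone, those of H2-M2 and Ctnnd2 remained with 36 libraries only, and those of Cadm1, Gdf15, Adam22 and Cd28 were lost.

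The largest decreases held lectin and complement genes and products of alternatively activated macrophages. Of the Cd209 family, C-type lectins related to human DC-SIGN, Cd209d changed by -3.98, Cd209b by -3.75, Cd209f by -3.09 and Cd209g by -2.98 on the log2 scale. Cd209f, the most abundant of the 4, was at 3.80, 15.5, 8.11 and 4.41 CPM in mac-TFEB and 12.9, 138, 135 and 28.0 CPM in Cre-neg. It was lower in 4 of 4 pairs, but the mac-TFEB library of label 2 lay above the Cre-neg library of label 1 (adjusted p = 0.000123, edgeR). How reads shared by near-identical copies were counted is not stated, so values of single Cd209 genes are uncertain. Cd209b was lower in 3 of 4 pairs and lost its call in 7 of 12 leave-out fits, with adjusted p up to 0.19, and Cd209d lost it without label 2 or label 3 (adjusted p up to 0.0703). C6, a component of the membrane attack complex of complement, was at 0.795, 3.32, 1.67 and 1.81 CPM against 11.1, 23.5, 24.2 and 9.31 CPM. The groups were separate and the change was -3.12 ± 0.37 (adjusted p = 4.32e-06, edgeR).

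Chil3 (Ym1, a chitinase-like marker of alternative activation) was at 198, 4.48, 40.6 and 43.6 CPM in mac-TFEB and 3452, 36.1, 155 and 133 CPM in Cre-neg. The Cre-neg library of label 1 stood far above all others and the groups overlapped, yet each mac-TFEB library lay below its partner, with a change of -2.82 ± 0.47 (adjusted p = 0.000495, edgeR). Alox15, the 12/15-lipoxygenase, was at 28.1, 24.4, 46.6 and 3.71 CPM against 143, 182, 198 and 31.1 CPM, lowest in label 4 of both groups, and changed by -2.56 ± 0.49 (adjusted p = 0.00253, edgeR). Prg4, which encodes the lubricant lubricin, changed by -2.80 ± 0.35, from 6.75 to 61.2 CPM to 2.12 to 8.40 CPM. Saa3, an acute-phase apolipoprotein, was at 24.4, 51.0, 53.8 and 205 CPM against 271, 287, 271 and 554 CPM, highest in label 4 of both groups. Its groups did not overlap and the change was -2.52 ± 0.37 (adjusted p = 0.000139, edgeR). Serpinb2, the plasminogen activator inhibitor PAI-2, changed by -2.50 ± 0.43, from 61.7 to 136 CPM to 9.59 to 35.1 CPM without overlap. These 5 genes and C6, Cd209f and Cd209g kept their calls in all 12 leave-out fits; of the 8, C6 and Prg4 were also called without the block with 36 libraries, though not with the 8 libraries alone.

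Outside the rule for named genes, some steady changes were picked after their values were seen. Bcl2l1, which encodes the anti-apoptotic protein BCL-XL, rose by 0.79 ± 0.08 (adjusted p = 8.40e-07, edgeR), from 307, 239, 139.5 and 177 CPM in Cre-neg to 534, 381, 278 and 292 CPM in mac-TFEB. Cd83, a surface protein of activated antigen-presenting cells, rose by 0.63 ± 0.08, from 1492 to 1964 CPM to 2463 to 2944 CPM without overlap. Vcam1, an adhesion molecule for integrin alpha4, rose by 1.24 ± 0.20, from 150.3, 151, 79.5 and 175 CPM to 437, 369, 215 and 298 CPM, without overlap. Nupr1, a stress-induced transcriptional regulator, was at 101, 134, 115 and 135 CPM in mac-TFEB against 233, 286, 267 and 218 CPM in Cre-neg and changed by -1.06 ± 0.11 (adjusted p = 8.40e-07, edgeR). Its groups were separate, and of these 4 genes only Nupr1 was also called without the block, with 36 libraries and with the 8 alone.

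The calls among lysosome genes are set beside those over all genes, of which 1.23% were called higher and 1.13% lower. Of 48 lysosomal hydrolases 0 were called higher and 2 lower, with a median log2 fold change of 0.01, the same as over all genes. The 2 were Dpp7, a dipeptidyl peptidase, at -0.40 ± 0.09 (adjusted p = 0.00881, edgeR), and Ctsl, cathepsin L, at -0.44 ± 0.10 (adjusted p = 0.0107, edgeR). Dpp7 stood at 80.5, 120.1, 165 and 149.9 CPM against 105, 191, 189.7 and 189.9 CPM, and Ctsl at 559, 785, 1076 and 1109 CPM against 891, 1112, 1453 and 1260.0 CPM. Both were lower in 4 of 4 pairs with overlapping groups; Dpp7 lost its call in 4 and Ctsl in 5 of 12 leave-out fits. Ctsd, cathepsin D, was at 7804, 10381, 14046 and 14436 CPM against 6884, 10013, 12917 and 11526 CPM, a difference of 0.17 ± 0.12 that was not called (adjusted p = 0.608, edgeR) though each mac-TFEB library lay above its partner. Ctsd shares 34.4% of its exonic bases with the same-strand gene model Gm49369. Lipa, the acid lipase, differed by 0.02 ± 0.10, with 2 of 4 pairs each way.

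Of 34 genes of the lysosomal membrane and the v-ATPase proton pump 2 rose and 1 fell (median -0.06). Over all genes 1.23% rose and 1.13% fell. Mcoln2, a lysosomal calcium channel of the mucolipin family, was at 42.2, 66.4, 71.9 and 76.6 CPM in mac-TFEB against 18.4, 61.4, 44.0 and 52.5 CPM in Cre-neg. Both groups had label 1 lowest and they overlapped, but every mac-TFEB library lay above its partner, with a change of 0.60 ± 0.16 (adjusted p = 0.0372, edgeR). Npc1, the cholesterol exporter of the lysosome, was at 142, 144, 145 and 142 CPM against 101, 129, 97.7 and 131 CPM, nearly level within mac-TFEB and above every Cre-neg library, and rose by 0.33 ± 0.09 (adjusted p = 0.0362, edgeR). Atp6v1e1, a subunit of the pump's cytoplasmic sector, changed by -0.31 ± 0.08 (adjusted p = 0.0244, edgeR). Mcoln2 and Npc1 each lost the call in 9 of 12 leave-out fits and Atp6v1e1 in 7, with adjusted p up to 0.399. Mcoln1, the mucolipin best known as a TFEB target, was at 8.60 to 14.6 CPM against 8.17 to 15.2 CPM (-0.16 ± 0.25), and Lamp1, the major lysosomal membrane glycoprotein, at 174 to 410.4 CPM against 188 to 448 CPM (-0.30 ± 0.15); neither was called. Gpnmb, a glycoprotein of lysosome-rich phagocytes, differed by 0.51 ± 0.25 (unadjusted p = 0.0498, adjusted p = 0.377, edgeR), higher in 4 of 4 pairs.

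Of 41 autophagy genes 1 rose and 0 fell (median -0.02), beside 1.23% and 1.13% of all genes. It was Calcoco1, an autophagy receptor, at 78.8, 76.2, 41.8 and 39.2 CPM against 53.4, 49.6, 32.1 and 27.9 CPM and 0.52 ± 0.13 (adjusted p = 0.0275, edgeR). Labels 1 and 2 were higher than 3 and 4 in both groups, and the call was lost in 9 of 12 leave-out fits. Sqstm1, the autophagy receptor p62, was at 632, 483, 532 and 533 CPM against 551, 352, 498 and 432 CPM, higher in 4 of 4 pairs but not called (0.26 ± 0.10, adjusted p = 0.177, edgeR). Among 29 genes of the MiT-TFE factors and of mTORC1 sensing at the lysosome, Tfeb was the only call. Of 33 lipid-handling genes 1 rose and 0 fell (median 0.0019). Lgals3 encodes galectin-3, a lectin secreted by phagocytes that also marks damaged lysosomes. It was at 1469, 1363, 1649.8 and 1313 CPM against 1282, 696, 1324 and 736 CPM, with groups that overlapped only through the Cre-neg library of label 3, and rose by 0.56 ± 0.15 (adjusted p = 0.04, edgeR). That call was lost in 9 of 12 leave-out fits.

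**Figure D3:**
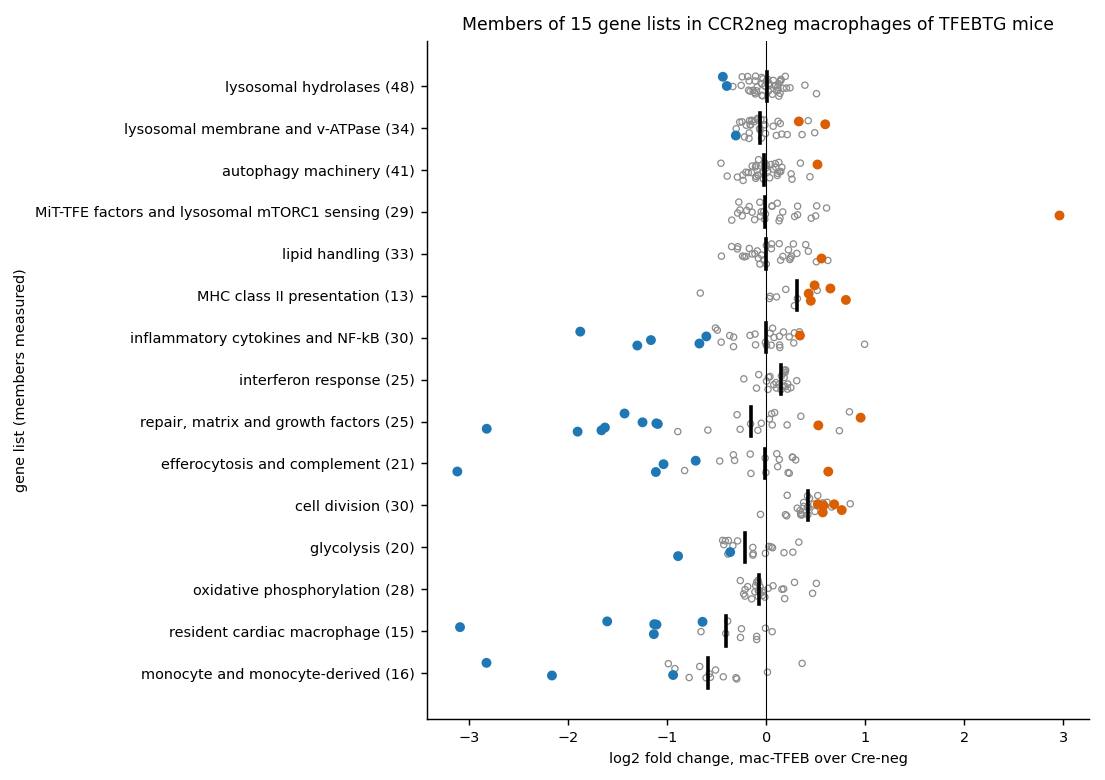
Fitted log2 fold change of each measured member of 15 gene lists (rows, number of members in brackets), with called members filled (orange higher, blue lower), other members open and black bars at the medians. Lysosome and autophagy lists are centred near 0, cell division lies at a median of 0.42, and the monocyte list at -0.59.

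Of 13 MHC class II genes, whose products present peptides to CD4 T cells, 5 rose and 0 fell, with a median of 0.31. Among all genes 1.23% rose and 1.13% fell. H2-Eb1 was at 1832, 1055, 844 and 807 CPM in mac-TFEB and 1053, 529, 497 and 499 CPM in Cre-neg. Label 1 was highest in both groups, the groups overlapped only through the Cre-neg library of label 1, and its change was 0.81 ± 0.15 (adjusted p = 0.00181, edgeR). H2-Ab1 rose by 0.65 ± 0.16, H2-Aa by 0.49 ± 0.12 and H2-DMb1, a chain of the class II peptide loader H2-DM, by 0.45 ± 0.11. The fifth was Cd74, the invariant chain, at 0.43 ± 0.12 and 13237 to 27457 CPM against 9853 to 17590.2 CPM. All 5 were higher in 4 of 4 pairs, but H2-Eb1 alone kept its call in all 12 leave-out fits, and without label 1 there were 2 calls. In the TFEBwt comparison of CX3CR1-Cre with Cre-neg, where 3.41% of all genes were called higher, 7 of the 13 were called higher, with a median of 0.67.

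The cell division list lay above 0 nearly throughout. Of 30 members 5 rose and 0 fell, beside 1.23% and 1.13% of all genes. In 29 the log2 fold change was above 0, and the median was 0.42. Mcm6, a subunit of the replicative helicase, was at 66.1, 55.1, 75.2 and 89.6 CPM against 56.5, 35.3, 40.7 and 62.1 CPM. It was higher in 4 of 4 pairs with overlapping groups, by 0.57 ± 0.10 (adjusted p = 0.00131, edgeR). Top2a, topoisomerase II alpha, was at 95.2, 64.1, 124 and 143 CPM against 43.4, 39.0, 68.4 and 107 CPM and rose by 0.76 ± 0.16 (adjusted p = 0.00639, edgeR). Nusap1, a spindle protein, rose by 0.69 ± 0.16, Rrm2, a subunit of ribonucleotide reductase, by 0.52 ± 0.13 and Mcm5, another helicase subunit, by 0.58 ± 0.15. Of these 5 only Mcm6 kept its call in all 12 leave-out fits, and 1 call was left without label 1, where the median was 0.47. The TFEBwt comparison called 10 of the 30 higher, beside 3.41% of all genes there, with the same median of 0.42. Of 20 glycolysis genes 2 fell (median -0.21), namely Ldhb, a lactate dehydrogenase subunit, at -0.89 ± 0.18 (adjusted p = 0.00483, edgeR), and Aldoa, an aldolase, at -0.36 ± 0.10 (adjusted p = 0.043, edgeR), and without label 1 neither was called. Of 28 oxidative phosphorylation genes and of 25 interferon-response genes 0 were called (medians -0.07 and 0.15).

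Matrix and repair genes fell more often than they rose. Of 25 members 8 were called lower and 2 higher (median -0.16), where 1.13% of all genes were called lower and 1.23% higher. In TFEBwt 9 of the 25 were called lower with Cre and 1 higher (median -0.32), beside 4.13% and 3.41% of all genes. Spp1, osteopontin, was at 884, 1385, 9621 and 1608 CPM in mac-TFEB against 3629, 3051, 14915 and 2507 CPM in Cre-neg. Label 3 was highest in both groups, and the change was -1.09 ± 0.20 (adjusted p = 0.00151, edgeR). Fn1, fibronectin, was at 293, 348, 764 and 533 CPM against 2027, 1072, 1302 and 910.4 CPM, without overlap, and changed by -1.66 ± 0.33 (adjusted p = 0.00391, edgeR). Arg1, arginase 1 of alternatively activated macrophages, was at 104, 131, 168 and 288 CPM against 618, 473, 383 and 394 CPM, also without overlap, at -1.63 ± 0.33. Without the Cre-neg library of label 1, the highest for both genes, the calls of Fn1 (adjusted p = 0.0557, its largest in any leave-out fit) and of Arg1 were lost, and that of Arg1 also without label 2. Retnla, the secreted protein Fizz1, changed by -1.90 ± 0.36 and lost its call only without label 3 (adjusted p = 0.0576). Timp1, an inhibitor of matrix proteases, changed by -1.43 ± 0.33, the gelatinase Mmp9 by -1.25 ± 0.28 and the matricellular protein Thbs1 by -1.11 ± 0.24, and their calls were lost in 6, 5 and 5 of 12 leave-out fits. The 2 rises were Mmp13, a collagenase, from 46.4, 71.2, 32.8 and 43.0 CPM to 121, 121, 70.8 and 65.5 CPM (0.95 ± 0.16, adjusted p = 0.000433, edgeR), and Pdgfa, a growth factor for mesenchymal cells (0.53 ± 0.14, adjusted p = 0.0416, edgeR), of which Pdgfa lost its call in 11 of 12 leave-out fits. Summed fibroblast markers were 57.1 to 345 CPM in mac-TFEB and 71.8 to 648 CPM in Cre-neg, highest in label 1 of both groups; their part in these results was not tested.

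Cytokine genes moved in both directions. Of 30 members of the inflammatory list 5 fell and 1 rose (median -0.0023), beside 1.13% and 1.23% of all genes. The chemokine Ccl8, a monocyte attractant, was at 79.5, 195, 184 and 514 CPM against 152, 502, 775 and 888 CPM. It was lower in 4 of 4 pairs with overlapping groups, at -1.30 ± 0.23 (adjusted p = 0.00135, edgeR). Ccl6 was at 948, 1325, 1543 and 2028 CPM against 1841, 2306, 2399 and 2469.8 CPM, at -0.67 ± 0.12, and Ccl9 at 307, 388, 442 and 518 CPM against 594, 638, 596 and 630.1 CPM, at -0.60 ± 0.14, the latter without overlap. Il6, interleukin 6, changed by -1.16 ± 0.27 and the neutrophil attractant Cxcl3 by -1.88 ± 0.46, from 116, 34.2, 17.4 and 18.9 CPM to 9.82, 9.22, 12.1 and 11.5 CPM. Cxcl16, a chemokine that is also a scavenger receptor, rose by 0.34 ± 0.09. Only Ccl8 and Ccl6 kept their calls in all 12 leave-out fits. In the list of efferocytosis and complement genes, 4 of 21 fell and 1 rose (median -0.01). The 4 were C6, described above, C4b, C3 (picked after its values were seen) and Cfb. C4b was at 179, 326, 258 and 326 CPM against 402, 954, 390.1 and 541 CPM without overlap, at -1.04 ± 0.20 (adjusted p = 0.00218, edgeR), C3 changed by -0.71 ± 0.17 and Cfb by -1.11 ± 0.23. Of the exonic bases of Cfb 79.5% are shared with the same-strand model Gm20547, so its value is uncertain. C3 lost its call in 6 of 12 leave-out fits and Cfb in 2, with adjusted p up to 0.284 and 0.0851. The rise was Axl, a receptor for the uptake of apoptotic cells, from 135, 84.0, 77.0 and 66.9 CPM to 199, 165, 117 and 88.1 CPM (0.63 ± 0.12, adjusted p = 0.00182, edgeR), higher in 4 of 4 pairs and called in all 12 leave-out fits.

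Of 15 markers of resident cardiac macrophages 6 fell and 0 rose in mac-TFEB, with a median of -0.41. Among all genes 1.13% fell and 1.23% rose. Ednrb, the endothelin B receptor, was at 53.7, 165, 100.2 and 114 CPM in mac-TFEB against 196, 607, 287 and 260.3 CPM in Cre-neg. The groups were separate, with label 2 highest in both, and the change was -1.61 ± 0.19 (adjusted p = 5.43e-06, edgeR). Lyve1, the hyaluronan receptor of perivascular macrophages, was at 206, 272, 182 and 247 CPM against 475, 561, 460.3 and 485 CPM, each mac-TFEB library below all Cre-neg libraries, at -1.13 ± 0.21 (adjusted p = 0.00162, edgeR). Fcna, the lectin ficolin A, changed by -1.13 ± 0.25, Timd4, a phosphatidylserine receptor of self-renewing macrophages, by -1.11 ± 0.30 and Folr2, a folate receptor, by -0.64 ± 0.14, lower in 4 of 4 pairs each. Folr2 shares 63.1% of its exonic bases with the opposite-strand model Gm10602. The sixth was Cd209f. Ednrb, Lyve1 and Cd209f kept their calls in all 12 leave-out fits, and Fcna, Folr2 and Timd4 lost theirs in 6, 5 and 10. The scavenger receptors Cd163 and Mrc1, named after their values were seen, were not called: Cd163 was at 237 to 522 CPM against 294 to 759 CPM (-0.41 ± 0.17) and Mrc1 at 786 to 1067 CPM against 704 to 1083 CPM (0.06 ± 0.11).

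Of 16 monocyte markers 3 fell and 0 rose, beside 1.13% and 1.23% of all genes, with a median of -0.59. Hp, haptoglobin, was at 10.1, 27.8, 25.7 and 29.97 CPM against 118, 80.8, 72.6 and 86.2 CPM without overlap, at -2.16 ± 0.40 (adjusted p = 0.00189, edgeR), and kept its call in all 12 leave-out fits. Ly6c2, which encodes the Ly6C antigen of classical monocytes and has a close copy in the genome, was near the detection limit at 0.0568, 0, 0.556 and 0.618 CPM against 1.38, 2.31, 1.88 and 2.51 CPM (-2.83 ± 0.68, adjusted p = 0.0196, edgeR). Treml4, a receptor of non-classical monocytes, changed by -0.94 ± 0.25. Ly6c2 and Treml4 each lost the call in 8 of 12 leave-out fits, and 1 of the 3 calls was left without label 1. Ccr2 was lower in 3 of 4 pairs, at -0.30 ± 0.24, and was not called (adjusted p = 0.679, edgeR). The summed level of the 16 markers was 401 to 758 CPM in mac-TFEB and 760 to 952 CPM in Cre-neg. Those ranges nearly touched, with mac-TFEB label 3 at 758.2 CPM and Cre-neg label 2 at 760.4 CPM. In TFEBwt 9 of the 16 were called lower with Cre and 1 higher (median -0.85), beside 4.13% and 3.41% of all genes.

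Lists of other cell types held 0 called genes: 12 members for cardiomyocytes, 10 for endothelial cells, 10 for fibroblasts, 10 for dendritic cells, 7 for mural cells, 7 for B cells, 11 for T and NK cells, 5 for red cells, 4 for neutrophils and 3 for mast cells were measured. Over all genes 2.35% were called, so 0 calls in lists this short cannot show that the levels of these cells were equal. All 12 cardiomyocyte members had a log2 fold change below 0 (median -0.77), and so had all 10 fibroblast members (median -0.78). Without label 1 those medians were -0.29 and -0.63. Myh6, the cardiac myosin heavy chain, was at 80.3, 0.322, 1.38 and 1.25 CPM in Cre-neg and 2.95, 1.11, 1.18 and 0.662 CPM in mac-TFEB, so 1 library set its difference. The 20 genes of the dissociation and stress response also had 0 calls (median -0.03). Without the block for the label, in the fit of 36 libraries, Tfeb and C6 were the only members of any list above that were called in the main comparison and remained so.

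The TFEBwt libraries show how far the same contrast went without a cassette. There, CX3CR1-Cre against Cre-neg gave 965 calls (7.54% of genes), 436 higher (3.41%) and 529 lower (4.13%), from 5 libraries a group. The comparisons share no library. Of the 301 genes called in TFEBTG, 282 (93.7%) had the same sign in TFEBwt, against 60.9% of all genes, and 198 were called there in the same direction, which is 65.8% of the 301 and 20.5% of the 965. Among the 144 genes that fell the share with the same sign was 142 of 144, and 112 were called in both. Chil3 changed by -2.47 in TFEBwt, Alox15 by -2.84, Saa3 by -2.15, Spp1 by -1.64, Fn1 by -2.05 and Ednrb by -1.59, each called in TFEBwt, and none of the 6 had a called difference between genotypes. Of the 157 genes that rose, 140 had the same sign and 86 were called. Among the rises named above, Ctnnd2 rose by 1.39 in TFEBwt, Cadm1 by 1.23, Cd4 by 0.77, Cd83 by 0.74, Adam22 by 0.68 and Bcl2l1 by 0.48. Each was called there, and none of them had a called difference between genotypes. For these rises and the 6 falls, a difference that was not called does not show that the changes were equal. Cd28 went the other way in TFEBwt (-0.43, not called). The 2 genes called in opposite directions were Mcoln2 and Lgals3.

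**Figure D4:**
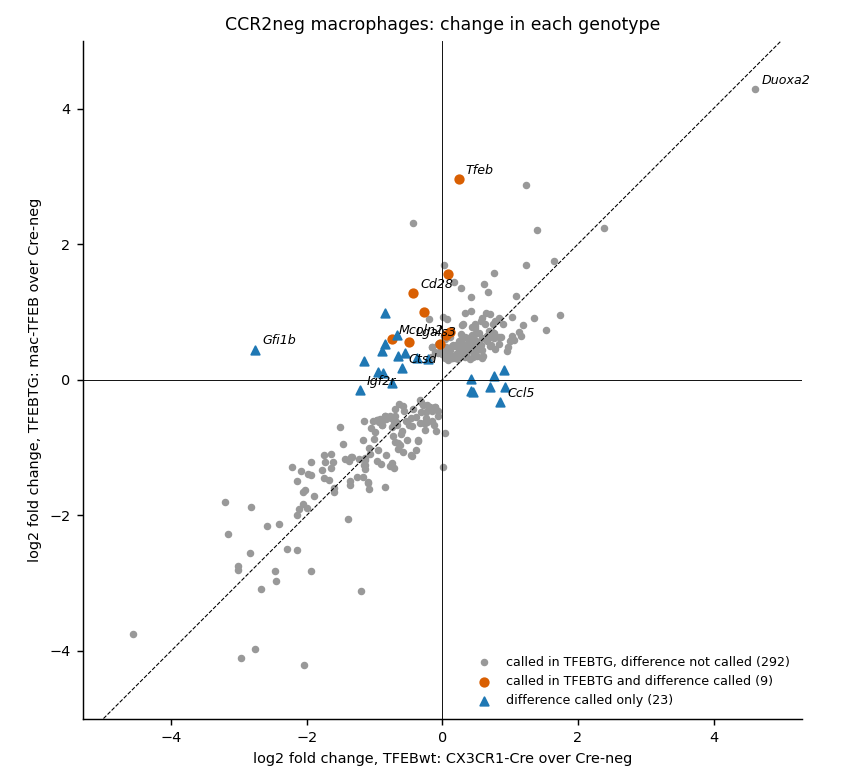
Fitted log2 fold change with Cre in TFEBTG (vertical) against that in TFEBwt (horizontal) for CCR2neg macrophages, for genes called in TFEBTG or with a called difference between genotypes. Most genes lie along the dashed line of equal change, and the 9 orange genes, Tfeb, Cd28 and Mcoln2 among them, lie above it.

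The difference between the TFEBTG and the TFEBwt change was tested as an interaction in the same fit. It was called for 32 genes (0.25%), 24 with a more positive change in TFEBTG (0.188%) and 8 with a more negative one (0.0625%), and 957 genes (7.48%) had an unadjusted p under 0.05. Of the 24, 9 had also risen in TFEBTG, among them Tfeb, Cd28, Mcoln2, Lgals3, Dnmt3a, Fam198b, Entpd1 and Rin3, the last 3 outside the rule for named genes. Tfeb differed by 2.72 ± 0.36 (adjusted p = 0.000272, edgeR), Cd28 by 1.71 ± 0.27 (adjusted p = 0.0029, edgeR) and Mcoln2 by 1.34 ± 0.21 (adjusted p = 0.0029, edgeR). Those 3 kept the call in all 22 fits that left out a library or a TFEBTG label, with adjusted p up to 0.0325. In TFEBwt Cd28 was at 8.57, 7.30, 8.56, 8.20 and 4.17 CPM with Cre and 13.1, 12.6, 10.8, 8.35 and 5.38 CPM without, all below 7 of the 8 TFEBTG libraries. Mcoln2 was at 31.0, 38.7, 29.8, 24.1 and 22.2 CPM with Cre and 46.2, 52.4, 58.3, 39.7 and 45.8 CPM without, so it was lower with Cre in 5 of 5 TFEBwt pairs and higher in 4 of 4 TFEBTG pairs. Lgals3 showed the same pattern, with 845, 1114, 992, 894 and 892 CPM against 914, 1321, 1820.4, 1045 and 1698 CPM in TFEBwt and a difference of 1.06 ± 0.20 (adjusted p = 0.0183, edgeR).

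Dnmt3a, a DNA methyltransferase, was at 148, 129.9, 217 and 154 CPM in mac-TFEB against 89.8, 98.3, 147 and 111 CPM in TFEBTG Cre-neg, and the difference between genotypes was 0.57 ± 0.11 (adjusted p = 0.0281, edgeR). Entpd1, the ectonucleotidase CD39, rose by 0.66 ± 0.10 in TFEBTG, from 407, 499, 325 and 389 CPM to 795, 697, 537 and 560.1 CPM, against 0.05 in TFEBwt. Rin3, a guanine nucleotide exchange factor for Rab5 GTPases, rose by 0.70 ± 0.10 against 0.11, and Fam198b, a Golgi protein, by 1.00 ± 0.20 against -0.27. In these 4 genes each mac-TFEB library lay above its partner, and only Dnmt3a had overlapping TFEBTG groups. Their TFEBTG calls held in all 12 leave-out fits, whereas their genotype differences were lost in 12 (Dnmt3a), 17 (Entpd1), 18 (Rin3) and 12 (Fam198b) of 22. The number of called differences ran from 3 to 33 without a TFEBTG library or label and from 5 to 45 without a TFEBwt library. It was also 21, 11, 9 and 5 without CX3CR1-Cre library 2, 3, 4 or 5 and 11, 16 and 8 without TFEBwt Cre-neg library 2, 3 or 5. It was 6 without mac-TFEB library 3 or 4, 21 without mac-TFEB library 2, 8 and 18 without Cre-neg library 3 or 4, and 21, 17, 5 and 3 without labels 1 to 4. Without the block no difference was called, while DESeq2 called 73 and limma-voom 46.

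Most of the 24 fell with Cre in TFEBwt: 16 were called lower there, Mcoln2 and Lgals3 among them, and the others of these described next were not called in TFEBTG. Outside Gfi1b, Fnip2, Il7r and Ctsd they were named after their values were seen. Some genes of lysosome function were among them. The difference was called more positive for 1 of 48 lysosomal hydrolases and 2 of 34 membrane and v-ATPase genes, beside 0.188% of all genes. In TFEBwt 6 of the 48 and 6 of the 34 were called lower, beside 4.13% of all genes. Ctsd was lower with Cre in TFEBwt (-0.60, adjusted p = 0.000417, edgeR) and differed between genotypes by 0.77 ± 0.16 (adjusted p = 0.0281, edgeR). Igf2r, the mannose-6-phosphate receptor that delivers hydrolases to lysosomes, was at 13.3, 23.0, 22.6, 15.9 and 19.7 CPM with Cre and 24.7, 55.1, 60.2, 33.2 and 52.8 CPM without in TFEBwt, and at 24.4, 30.4, 62.6 and 61.1 CPM in mac-TFEB and 51.4, 38.3, 44.0 and 52.7 CPM in TFEBTG Cre-neg. In TFEBTG the groups overlapped and 2 of 4 pairs went each way, and the genotype difference was 1.06 ± 0.24 (adjusted p = 0.0424, edgeR). Atp6v0d2, a v-ATPase subunit of phagocytes and osteoclasts, differed by 1.31 ± 0.26, with 0.42 in TFEBTG and -0.88 in TFEBwt. Fnip2, a partner of folliculin in mTORC1 sensing, differed by 0.69 ± 0.15. Calls were lost in 15 (Ctsd), 15 (Igf2r), 12 (Atp6v0d2) and 13 (Fnip2) of 22 leave-out fits.

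Surface receptors and peptides made up a further set. Cd300lf, an inhibitory receptor for lipids, differed by 0.98 ± 0.16 (adjusted p = 0.0041, edgeR), with 0.10 in TFEBTG and -0.88 in TFEBwt, and lost the call in 2 of 22 leave-out fits. Cd200r1, the inhibitory receptor for CD200, differed by 0.70 ± 0.15, Anpep, aminopeptidase N, by 1.33 ± 0.26, Il7r, the interleukin 7 receptor, by 1.37 ± 0.28, Npy, neuropeptide Y, by 1.83 ± 0.38 and Stra6l, a retinol transporter, by 1.42 ± 0.29. Gfi1b, a transcriptional repressor of blood cell development, differed by 3.21 ± 0.58 (adjusted p = 0.0118, edgeR). Its levels were 21.0, 13.96, 19.7 and 18.8 CPM in mac-TFEB and 12.6, 12.3, 13.7 and 15.2 CPM in TFEBTG Cre-neg, but 0.265, 0.0561, 0, 0 and 0.368 CPM and 0.347, 0.923, 0.775, 0.597 and 1.96 CPM in TFEBwt with and without Cre, so the TFEBwt change rests on levels under 2 CPM. All 8 genes with a more negative change in TFEBTG had been called higher in TFEBwt, and none was called in TFEBTG. Among them were the chemokines Ccl5, at -1.18 ± 0.25 (adjusted p = 0.0281, edgeR), and Ccl12, at -0.82 ± 0.17, the sialic acid receptor Siglece, at -0.77 ± 0.17, and the paired membrane proteins Tmem176a and Tmem176b, at -0.63 ± 0.12 and -0.59 ± 0.12. Each of these 12 differences lost its call in at least 2 of the 22 leave-out fits.

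**Figure D5:**
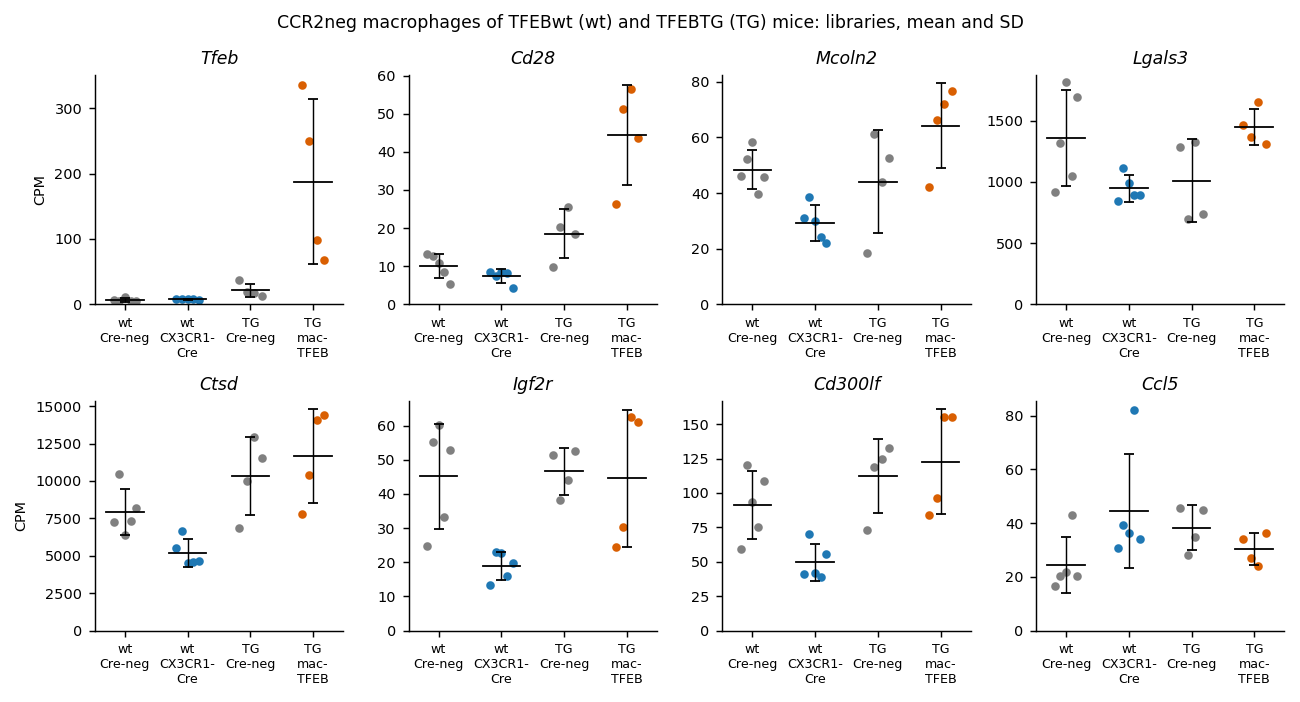
CPM of 8 genes with a called difference between genotypes, in CCR2neg macrophages of TFEBwt (wt, 5 libraries a group) and TFEBTG (TG, 4 libraries a group) mice, with points for libraries, bars for means and whiskers for SD. Tfeb and Cd28 are highest in TG mac-TFEB, Mcoln2 and Lgals3 fall with Cre in wt and rise in TG, Ctsd, Igf2r and Cd300lf fall with Cre in wt, and Ccl5 rises with Cre in wt.

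MiT-TFE factors bind the E-box CACGTG and, within it, longer forms such as GTCACGTG and TCACGTGA, so promoters (250 bases before to 50 after RefSeq gene starts, build GRCm38.p6, 9766 of the genes tested) were searched for these letters on both strands. CACGTG was present for 11.8% of all genes with a promoter, 11.5% of 113 that rose, 15.5% of 103 that fell, 32.4% of 37 lysosomal hydrolases, 33.3% of 27 membrane and v-ATPase genes and 15.2% of 33 autophagy genes. GTCACGTG was in 4.79% of all, 3.54% of those that rose and 0.971% of those that fell, and TCACGTGA in 2.22% of all, 0 of the 113 that rose and 0.971% of those that fell. Of 18 genes with a promoter and a more positive change in TFEBTG, 4 (22.2%) held CACGTG: Ctsd, Igf2r, Dnmt3a and Mcoln2. Of 7 with a more negative change 1 (14.3%) held it. Their matches are shown because these 4 held the motif and had a called difference between genotypes. Picked for both, they are no test of a link between the 2. Ctsd (0.17) and Igf2r (-0.16) were not called in TFEBTG and were called lower with Cre in TFEBwt. Matches are printed 5′ to 3′ on the gene's strand, with the E-box in capitals and up to 12 bases on either side.
Ctsd, 245 bases before the start (chr7:142388055-142388077, minus strand): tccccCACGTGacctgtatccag
Ctsd, 98 bases before the start (chr7:142387908-142387937, minus strand): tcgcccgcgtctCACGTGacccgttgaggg
Igf2r, 48 bases before the start (chr17:12769737-12769766, minus strand): gaacgaggacgtCACGTGagcaggaggcgg
Igf2r, 7 bases before the start (chr17:12769696-12769725, minus strand): gccgactcaggtCACGTGacgctccgggga
Dnmt3a, 80 bases before the start (chr12:3891652-3891681, plus strand): tccagtggggccCACGTGacctggagttct
Mcoln2, 72 bases before the start (chr3:146150090-146150119, plus strand): tccctgagctcaCACGTGgaccccattctg
The flanks differ between the sites: in Ctsd and Igf2r the E-box sits within GTCACGTG or its reverse complement, as in Dnmt3a, whereas Mcoln2 holds neither longer form. The start used for Dnmt3a is 1 of 3 in the table and lies inside the gene. Igf2r is the only one of the 4 with 2 sites close to the start, and the 250 bases before it (chr17:12769707-12769956, minus strand), which overlap no GENCODE vM21 exon, are printed whole to show their spacing.
Igf2r: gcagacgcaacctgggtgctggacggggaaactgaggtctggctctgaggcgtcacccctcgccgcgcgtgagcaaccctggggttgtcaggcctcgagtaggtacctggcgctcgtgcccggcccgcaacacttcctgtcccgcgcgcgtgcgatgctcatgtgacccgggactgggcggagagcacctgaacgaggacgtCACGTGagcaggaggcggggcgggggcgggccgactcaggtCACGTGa
The second Ctsd site overlaps exonic sequence of GENCODE vM21. A match is a description of these letters and not of binding, which was not measured.

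In the CCR2-positive (CCR2pos) fraction of the same TFEBTG labels, mac-TFEB against Cre-neg gave 26 calls (0.203% of genes), 9 higher and 17 lower, from 4 libraries a group. Of the 301 genes called in CCR2neg, 261 had the same sign in CCR2pos (86.7%, against 56.1% of all genes), and 17 were called there in the same direction. Tfeb rose in CCR2pos by 1.85 (adjusted p = 0.000322, edgeR), Duoxa2 by 4.86, Ctnnd2 by 1.98, Cd4 by 1.09, Cadm1 by 1.18 and Cd28 by 0.93, while Cd209f changed by -2.58 and Chil3 by -2.71. Retnla and Alox15, which fell in CCR2neg, were at 0.03 and -0.45 in CCR2pos and not called. A test of the difference between fractions called 0 genes with edgeR, beside 693 at an unadjusted p under 0.05 (5.42%), 14 calls with DESeq2 and 12 with limma-voom.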

How the data were processed

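PolyA RNA of flow-sorted cardiac macrophages was sequenced in 36 libraries. Per the labels' protocols, the SMARTer Ultra Low kit, 12 cycles of amplification and single reads of 50 bases without strand were used. Bowtie2, TopHat, TopHat2 2.0.10, HTSeq, the build GRCm38, edgeR and DESeq are listed without parameters in the submitters' processing notes. The authors deposited raw read counts in 1 table of genes, called filtered in its name; the sources used here do not give the filter.

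The counts were tested with edgeR 4.0.16 in R 4.3.3, in 1 quasi-likelihood fit to the 36 libraries with TMM scaling, a term for each group, the label (9 levels) as a block, 21 residual degrees of freedom and Benjamini-Hochberg adjustment over all genes. Its expression filter (minimum count 10) removed 0 genes. Each standard error was obtained from the fold change (log2) and the square root of its F statistic, as their quotient. CPM are not scaled to gene length. Deviations from group means of same-numbered TFEBTG CCR2neg libraries correlated at 0.30 to 0.63 (other numbers -0.50 to 0.43). Such deviations sum to 0 in a group, which lowers the correlations between other numbers. Library 3 of mac-TFEB correlated more with Cre-neg library 4 (0.43) than with Cre-neg library 3 (0.30). Xist was above 10 CPM in both libraries of 2 labels and under 1 CPM in both of the other 2, which does not identify single partners. The numbers were taken to pair the libraries, which remains an assumption. Libraries within a group differed by more than sampling noise in all 12 pairs (chi-square per degree of freedom 36.9 to 119).

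The comparisons, the 27 gene lists (517 of 533 entries measured) and the naming rule were chosen with earlier results of these data known. The rule takes Tfeb, Cx3cr1, Ccr2, Gfi1b, Lipa, Gpnmb, Sqstm1, Lamp1, Mcoln1 and Ctsd, the 10 largest called changes in each direction where 1 group averages 10 CPM or more (no pseudogenes or unnamed models), up to 4 members a list by unadjusted p and up to 6 genes per difference; the text names 65 genes by it and 35 picked after their values were seen. Alternatives were no block, the 8 or 16 TFEBTG libraries alone, DESeq2 1.42.0's size factors and Wald test, limma-voom 3.58.1 with quality weights, a strict filter (1 CPM in 9 libraries), no filter, and leaving out each TFEBTG CCR2neg library and each TFEBTG label; leaving out each TFEBwt library was added after seeing the data. A result on 1 gene is not reported here. Positions are from GENCODE vM21 and promoters from RefSeq (GRCm38.p6).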

Additional observations from a re-analysis of the deposited data

Results flagged for a closer look

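In groups of 4 libraries the highest or lowest library stood apart, by the ratio of its gap to the group's range on the log2 scale, in 12 of 254 groups (4.72%) formed by named genes or list sums; chance gives about 1 in 20. In Cre-neg these were Cd200r1 (0.944, label 1 low at 50.2 CPM), Dpp7 (0.991, label 1 low at 105 CPM against 190 to 191 CPM), Duoxa2 (0.85, label 2 low), H2-Eb1 (0.916, label 1 high), Saa3 (0.92, label 4 high) and the summed hydrolases (0.906, label 1 low) and B cell markers (0.908, label 2 high at 1079 CPM). In mac-TFEB they were Cxcl16 (0.851, label 1 high), Fam198b (0.831, label 2 low), Hp (0.857, label 1 low), the summed repair and matrix genes (0.847, label 3 high) and the summed erythroid markers (0.883, label 1 high at 11.1 CPM).

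Differences between the TFEBTG and the TFEBwt change passed the interaction test for 24 of the genes named. On the log2 scale they were positive for Tfeb (2.72), Cd28 (1.71), Mcoln2 (1.34), Cd300lf (0.98), Gfi1b (3.21), Lgals3 (1.06), Anpep (1.33), Atp6v0d2 (1.31), Dnmt3a (0.57), Stra6l (1.42), Il7r (1.37), Fam198b (1.27), Npy (1.83), Fnip2 (0.69), Cd200r1 (0.70), Ctsd (0.77), Entpd1 (0.61), Rin3 (0.59) and Igf2r (1.06). They were negative for Tmem176a (-0.63), Tmem176b (-0.59), Ccl5 (-1.18), Ccl12 (-0.82) and Siglece (-0.77).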

How the results depend on the processing

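The block for the label decides the number of calls. Against 301 calls (157 higher, 144 lower) with the block, edgeR without a replicate block called 20 (11 higher, 9 lower), and on the 8 libraries alone 186 with the block (71 higher) and 6 without (3 higher, 3 lower). DESeq2's Wald test called 461 (235 lower) and limma-voom 562 (362 higher). Leaving out 1 library gave 151 to 303 calls, 70 to 136 higher and 81 to 169 lower, and leaving out labels 1 to 4 gave 128, 116, 174 and 194 calls, of which 56, 62, 79 and 80 were higher and 72, 54, 95 and 114 lower. Other scalings and filters stayed within 1.5 times. The 32 called differences between genotypes became 0 without the replicate block, 73 with DESeq2's Wald test, 5 to 45 without 1 library and 21, 17, 5 and 3 without labels 1 to 4. The difference between fractions, with 0 calls, gave 14 with DESeq2's Wald test, 12 with limma-voom and 0 to 2 when a library or label was left out. Of 74 called genes named, 37 kept the call in all 12 leave-out fits, as did 3 of 24 genotype differences in all 22.

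Genes that were not called changed sign. Leaving out 1 library gave log2 fold changes of -0.137 to 0.0043 for Cd200r1, -0.327 to 0.0415 for Igf2r, -0.0423 to 0.103 for Lipa, -0.393 to 0.0230 for Mcoln1, -0.0261 to 0.147 for Mrc1, -3.06 to 0.22 for Myh6 and -4.06 to 5.54 for Plekhh2. Without label 1, Igf2r was at 0.0924 and Plekhh2 at -2.55, Lipa was at -0.0268 without label 3 and -0.0094 without label 4, and Mcoln1 was at 0.0037 without label 3. With limma-voom, Igf2r was at 0.0413, Mrc1 at -0.0325 and Plekhh2 at -1.88. The cause was not tested. Depth limits genes near 1 CPM, such as Ly6c2.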

Other observations

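Plekhh2, which encodes a cytoskeletal adaptor, varied widely between libraries and was picked after its values were seen. It was at 5504, 47.7, 3.53 and 1.19 CPM in mac-TFEB and 38.6, 6.98, 12.1 and 205 CPM in Cre-neg, labels 1 to 4, so 1 library held a level far above the other 7 and the Cre-neg library of label 4 came next. The log2 fold change of 2.90 ± 3.80 was not called (adjusted p = 0.832, edgeR). Higher levels lay in mac-TFEB for labels 1 and 2 and in Cre-neg for labels 3 and 4.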
